A study of Mus musculus with 18 samples.

Results

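The glycolysis and hypoxia-inducible genes described here are 36 named mouse genes, chosen as a list of gene symbols, with earlier results of these data known. They cover glucose uptake, the enzymes from hexokinase to pyruvate kinase, the fates of pyruvate, and the hypoxia-inducible factor (HIF) with its hydroxylases and targets. All 36 were found among the 54347 genes of the count table. RNA was sequenced from marrow-derived mesenchymal stem cells (MSCs) of male C57BL/6J mice in 18 libraries, 3 for each of 6 groups. In the first experiment, untransfected cells had no treatment (control), CK666 or CytoD. CK666 inhibits the Arp2/3 complex, which nucleates branched actin filaments, and CytoD (cytochalasin D) blocks actin polymerization in the cytoplasm. In the second experiment, all cells were transfected with an siRNA by overnight lipofection in serum-free medium, with a mock siRNA (siControl), an siRNA to Arp4 (siArp4), or the siRNA to Arp4 with CK666 (siArp4+CK666). Arp4, encoded by Actl6a, is an actin-related protein of nuclear chromatin remodelling complexes. None of the 18 libraries was from siControl cells with CK666, so the effect of CK666 in transfected cells could be taken within the knockdown alone. The cells came from the marrow of several mice and the 3 libraries of a group were distinct preparations, but no library is tied to an animal. The p-values therefore measure the spread between preparations.

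Glycolysis splits glucose into pyruvate in the cytosol. A preparatory stage spends ATP to phosphorylate and cleave the sugar, and a payoff stage returns ATP and NADH. HIF is a transcription factor whose alpha subunit is hydroxylated by the EGLN prolyl hydroxylases when oxygen is present, and is then bound by the VHL ubiquitin ligase and degraded. When oxygen is low, the stabilized subunit raises transcription of many glycolytic enzymes, of the enzymes that divert pyruvate to lactate, of its own hydroxylases and of angiogenic factors. The bone marrow is a low-oxygen tissue, and its stromal stem cells are known for a largely glycolytic metabolism.

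HIF binds DNA at a core of 5 letters, ACGTG or GCGTG. Promoters from 250 bases before to 50 bases after each gene start (RefSeq, GRCm38.p6) were found for 33 of the 36 genes, and Slc2a3, Ndrg1 and Bhlhe40 had no entry. Of their 49 promoters, 38 (77.6%) held either core on either strand, against 43.8% of all 32851 promoters of that length. The median GC content was 62% in the 49 promoters and 52.7% in all, and the median number of CG dinucleotides was 20 against 7. The E-box CACGTG, which itself holds ACGTG on both strands, was in 10.2% of the 49 promoters and in 7.15% of all promoters. The 4 promoter sequences below were taken from the 9 genes lower with CK666 and higher with siArp4. For each gene the promoter nearest its annotated start was used, cut before the first annotated base of the gene. The 4 are those of the 9 with 2 or more cores in the part before both starts. Eno1, Pdk1 and Egln1 held 1 core each in that part, which for Egln1 was 180 bases. Over the full 300 bases these 3 promoters held 2 cores each, and Egln1 held both of its cores before the RefSeq start. Pfkl, with 1 core, had no part left after the cut, and Bhlhe40 had no entry. The sequences run 5′ to 3′ on the strand of the gene and end before its first annotated base, in GRCm38.p6. Cores are in capitals, where CACGT and CACGC are the cores read on the opposite strand. A match is a string of letters and not a measured binding site.
Pgk1, chrX:106186850-106187099, plus strand: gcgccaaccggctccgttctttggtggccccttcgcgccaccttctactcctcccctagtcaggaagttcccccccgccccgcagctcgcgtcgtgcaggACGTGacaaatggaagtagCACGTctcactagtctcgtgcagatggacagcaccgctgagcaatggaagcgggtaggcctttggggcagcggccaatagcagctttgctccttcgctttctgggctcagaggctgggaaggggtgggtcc
P4ha1, chr10:59323046-59323295, plus strand: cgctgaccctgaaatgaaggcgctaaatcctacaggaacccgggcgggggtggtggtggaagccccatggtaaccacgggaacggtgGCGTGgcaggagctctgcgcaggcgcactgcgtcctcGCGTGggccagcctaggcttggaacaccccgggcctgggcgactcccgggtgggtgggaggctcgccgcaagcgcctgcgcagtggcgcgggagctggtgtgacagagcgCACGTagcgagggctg
Adm, chr7:110627407-110627656, plus strand: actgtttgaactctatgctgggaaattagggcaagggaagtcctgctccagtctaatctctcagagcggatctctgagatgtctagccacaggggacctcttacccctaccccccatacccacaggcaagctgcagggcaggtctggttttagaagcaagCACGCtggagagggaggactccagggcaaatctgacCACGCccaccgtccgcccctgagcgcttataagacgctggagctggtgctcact
Bnip3, chr7:138909520-138909756, minus strand: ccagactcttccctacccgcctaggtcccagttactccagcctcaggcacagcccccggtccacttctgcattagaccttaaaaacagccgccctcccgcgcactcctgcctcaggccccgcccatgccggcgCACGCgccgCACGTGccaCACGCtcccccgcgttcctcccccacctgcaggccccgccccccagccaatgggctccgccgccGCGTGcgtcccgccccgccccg
The Pgk1 promoter held 2 cores, the P4ha1 promoter 3 and the Adm promoter 2. The stretch of 237 bases before Bnip3 held 5 matches, a pair of which overlap in one E-box.

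Total counts ran from 18075610 to 24733212 per library. The siRNA lowered its target: Actl6a had normalized counts of 720, 1126 and 840 in siControl, 48.8, 56.7 and 19.4 with siArp4, and 9.39, 23.3 and 17.4 with siArp4+CK666. Stromal genes such as Col1a1 (858 to 4450 CPM, counts scaled to library size) and Col1a2 (2710 to 6770 CPM) were detected in all 18 libraries, whereas Thy1, a usual MSC marker, was at 0 in all 18 and Nt5e ran from 0 to 0.391 CPM. The haematopoietic marker Ptprc was at 0 in 17 libraries and the endothelial markers Cdh5, Emcn and Tie1 at 0 in 18. Other haematopoietic markers, Cd68, Csf1r, Cd14 and Lyz2, were detected in all 18, at up to 5.36, 8.84, 6.2 and 9.45 CPM. The endothelial marker Kdr was also detected in all 18, at up to 1.27 CPM. The 12 marrow stromal markers summed to 9150 to 9800 CPM in control, 4990 to 5730 in CK666, 8580 to 9340 in CytoD, 4810 to 8320 in siControl, 11200 to 12600 in siArp4 and 5470 to 6450 in siArp4+CK666. Of the 10 stromal markers tested, 7 fell with CK666, where 14.7% of all genes fell. With siArp4 2 rose and 1 fell, where 11.9% of all genes rose and 13.1% fell. The summed markers moved with the treatments, and their part in the changes below was not tested. In bulk RNA, fewer cells of a type and less RNA per cell cannot be told apart. The mitochondrial genes took 1.43% to 1.82% of counts in control, 1.36% to 1.88% in CK666, 1.78% to 1.89% in CytoD, 1.30% to 2.65% in siControl, 2.67% to 3.26% in siArp4 and 2.86% to 3.36% in siArp4+CK666. Both knockdown groups lay above siControl in this share, whose part in the knockdown changes was not tested. The chi-square of the counts per degree of freedom was 107.8 and 67.1 between CK666 replicate 1 and the other two CK666 libraries, against 13.9 between those. The 3 siControl libraries all lay far from each other, at 425.1 between replicates 1 and 2, 147.5 between 2 and 3 and 119.7 between 1 and 3. For siArp4+CK666 replicate 3 it was 93.9 and 33.4, against 26.4 between the other two.

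Per unit of transcript length, glycolytic enzymes were the most abundant of the 36 transcripts. The highest mean levels in control cells, on the TPM scale of counts per transcript length, were 4838 for Gapdh, 2851 for Eno1, 2340 for Pkm, 2110 for Ldha, 2079 for Aldoa and 1862 for Pgk1. Slc16a3, Aldoc and Slc2a3 were the lowest, at 0.72, 0.334 and 0.0387 TPM. In siControl cells Gapdh was again the highest, at 6181 TPM, and Eno1 was 7th of the 36 genes, at 1070 TPM. The 15 glycolytic enzymes together with Ldha, which turns pyruvate into lactate, took 1.56% ± 0.0208 (SD, n = 3) of all counts in untreated cells, 1.09% ± 0.15 with CK666 and 1.32% ± 0.0153 with CytoD. The share was 1.97% ± 0.191 in siControl, 2.25% ± 0.11 in siArp4 and 1.80% ± 0.158 in siArp4+CK666. The 3 CK666 libraries (0.957% to 1.25%) and the 3 CytoD libraries (1.31% to 1.34%) lay below the 3 control libraries (1.54% to 1.58%). The siArp4 libraries (2.12% to 2.32%) lay above those of siControl (1.75% to 2.09%), while those of siArp4+CK666 (1.66% to 1.97%) overlapped them.

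**Figure D1:**
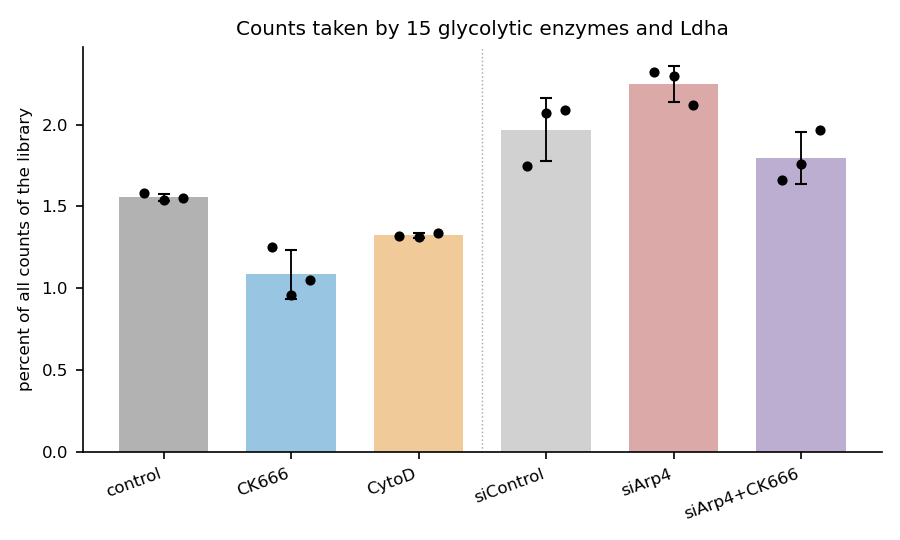
Percent of each library's counts taken by 15 glycolytic enzymes and Ldha, by group. Bars are means, error bars SD (n = 3) and points libraries; the group means run from 1.09% in CK666 to 2.25% in siArp4, and the dotted line parts the untransfected from the transfected cells.

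Most of the 36 genes had lower levels after CK666. Counts were compared with DESeq2, and a gene was called at a Benjamini-Hochberg adjusted p below 0.01 over all genes tested. With CK666, 1 gene rose (Ndrg1) and 19 fell of 36 tested, where 15.3% of all 14597 genes rose and 14.7% fell. At the stricter rule that also asks for an absolute log2 fold change over 1, 1 rose and 7 fell, where 4.89% of all genes rose and 6.06% fell. The median log2 fold change was -0.63 over the 36 genes and 0.01 over all genes. The lower genes came from the enzymes and from the HIF targets alike: 9 of the 16 enzymes counted above fell, and 8 of the 14 HIF pathway genes and other HIF targets fell and 1 rose. With CytoD, 3 genes rose and 15 fell of 35 tested, where 13.6% of all 13717 genes rose and 16.0% fell, and the median was -0.38 against 0.01. At the stricter rule 2 fell and 0 rose, also 0 in edgeR (1, Slc2a3, at an unadjusted p under 0.05), where 4.80% of all genes rose and 4.32% fell. Of 15 enzymes tested with CytoD, 2 rose and 8 fell, and of the 14 HIF pathway genes and targets 1 rose and 5 fell. Without control replicate 2, the count at the stricter rule went from 8 to 5 for CK666, and without CytoD replicate 2 it went from 2 to 4 for CytoD.

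Arp4 knockdown moved many of the 36 genes the other way. With siArp4 against siControl, 13 genes rose and 3 fell of 36 tested, where 11.9% of all 15415 genes rose and 13.1% fell, and the median log2 fold change was 0.34 against -0.05 over all genes. At the stricter rule 9 rose and 3 fell, where 6.69% of all genes rose and 9.49% fell. The HIF pathway genes and other targets held most of the rises, with 8 of 14 higher, 1 lower and a median of 1.0. Of the 16 enzymes, 4 rose and 1 fell, with a median of 0.10. With siArp4+CK666 against siControl, 10 genes rose and 4 fell of 36, where 14.0% of all genes rose and 15.8% fell, and the median was -0.01 against -0.05. The stricter rule called 7 higher and 3 lower, where 8.06% of all genes rose and 12.4% fell. In that comparison 8 of the 14 HIF pathway genes and targets rose and 2 fell (median 0.81), and 2 of the 16 enzymes rose (median -0.25). The 2 knockdown comparisons share the siControl libraries.

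**Figure D2:**
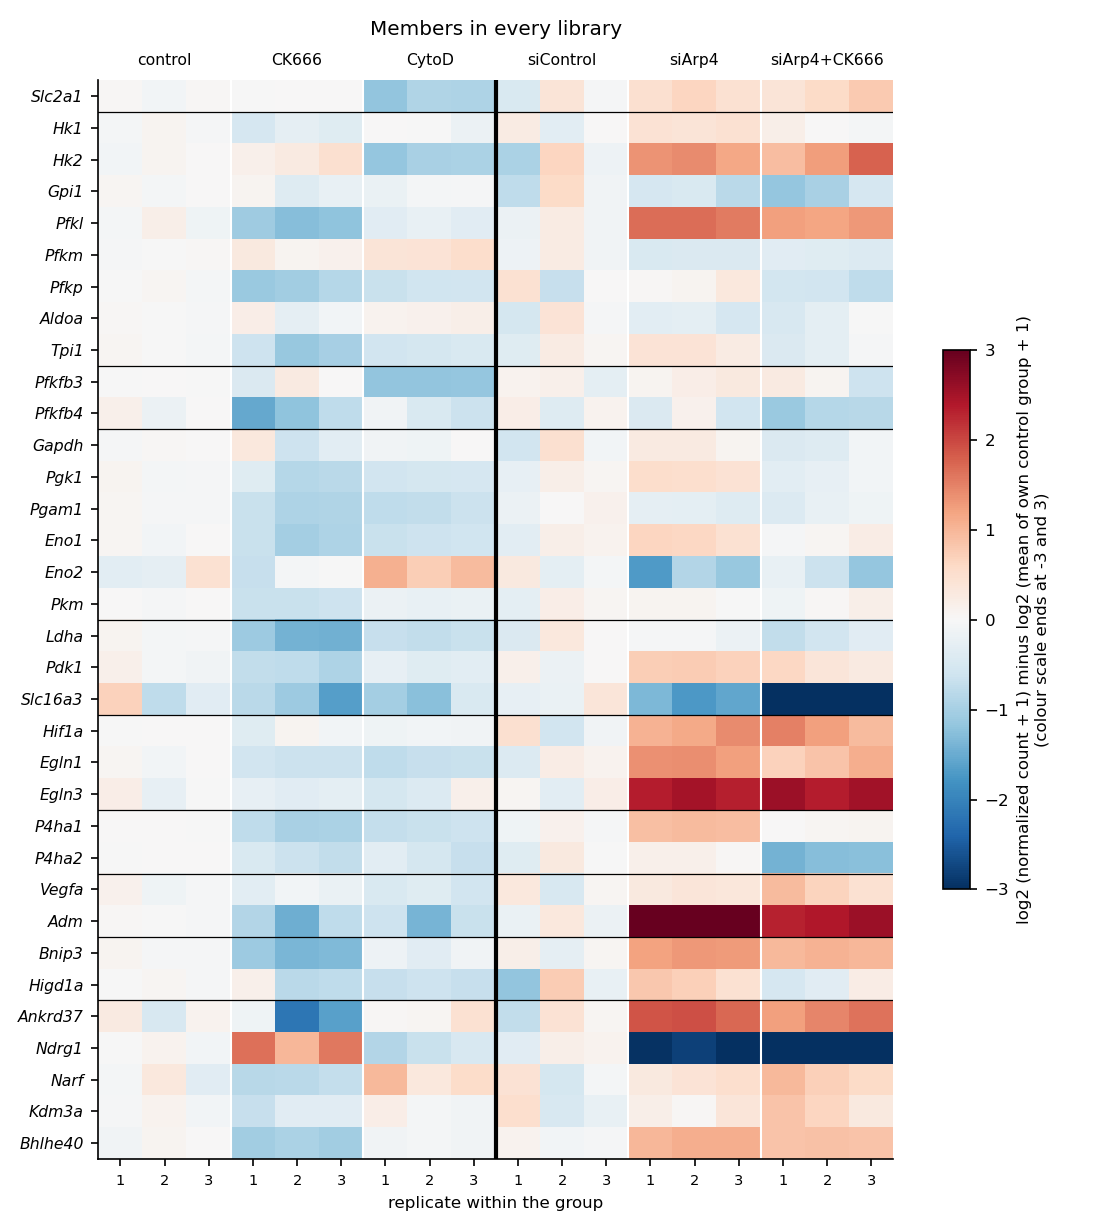
Heat map of 34 of the genes, Slc2a3 and Aldoc being too low to show, in the 18 libraries, ordered by role. Colour is log2 of the normalized count plus 1 minus that of the mean of the library's own control group, control on the left of the black line and siControl on its right, with the scale ending at -3 and 3; the CK666 columns are mostly blue and Ndrg1 turns from red in CK666 to deep blue in both knockdown groups.

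**Figure D3:**
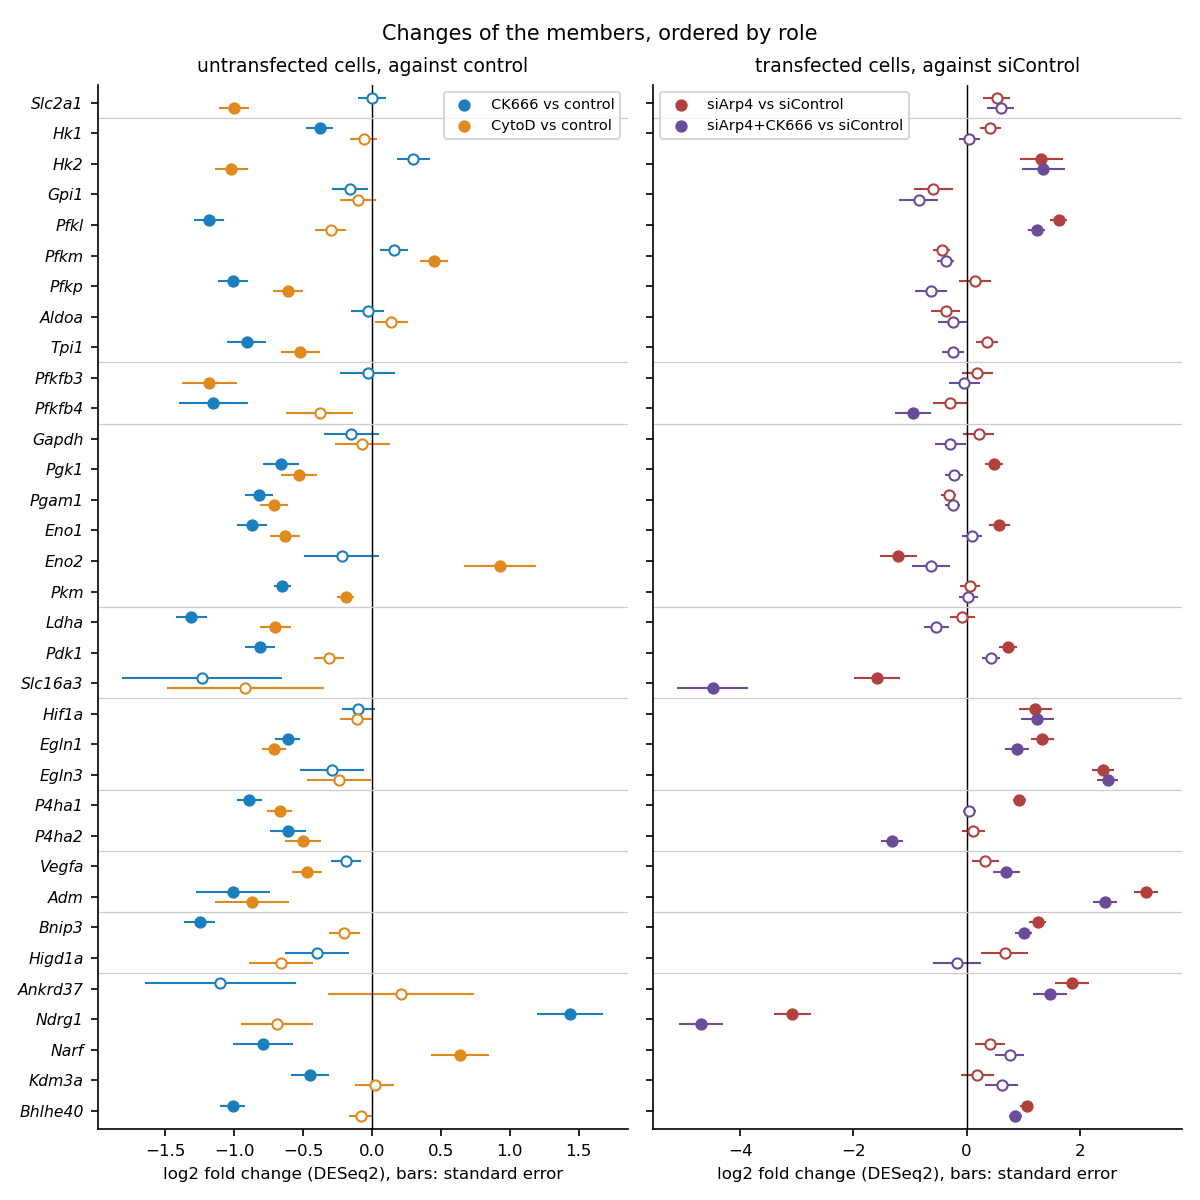
DESeq2 log2 fold change of each gene, with its standard error as a bar, for CK666 and CytoD against control (left) and for siArp4 and siArp4+CK666 against siControl (right). Filled points have an adjusted p below 0.01 and open points do not; most points lie left of 0 in the left panel, and Adm (3.17) and Ndrg1 (-3.08) are the extremes of siArp4 on the right.

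Set side by side, the CK666 and siArp4 comparisons, which share no library, called 9 genes in opposite directions as lower with CK666 and higher with siArp4. These were the glycolytic genes Pfkl, Pgk1 and Eno1, the pyruvate dehydrogenase kinase Pdk1, the hydroxylases Egln1 and P4ha1, and the HIF targets Adm, Bnip3 and Bhlhe40. They are 9 of the 19 genes that fell with CK666 and 9 of the 13 that rose with siArp4. Over all 14133 genes tested in both, 2.57% had that pair of calls, and 2.56% had the reverse pair, which 1 gene of the 36, Ndrg1, had. None of the 36 was called in the same direction in both comparisons. The share of all genes with calls in the same direction was not counted, so nothing is drawn from that absence. A further 10 genes fell with CK666 and did not pass with siArp4 (Hk1, Pfkp, Tpi1, Pfkfb4, Pgam1, Pkm, Ldha, P4ha2, Narf and Kdm3a), and 4 rose with siArp4 and did not pass with CK666 (Hk2, Hif1a, Egln3 and Ankrd37). Eno2 and Slc16a3 fell with siArp4 and did not pass with CK666, and 10 genes passed in neither.

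**Figure D4:**
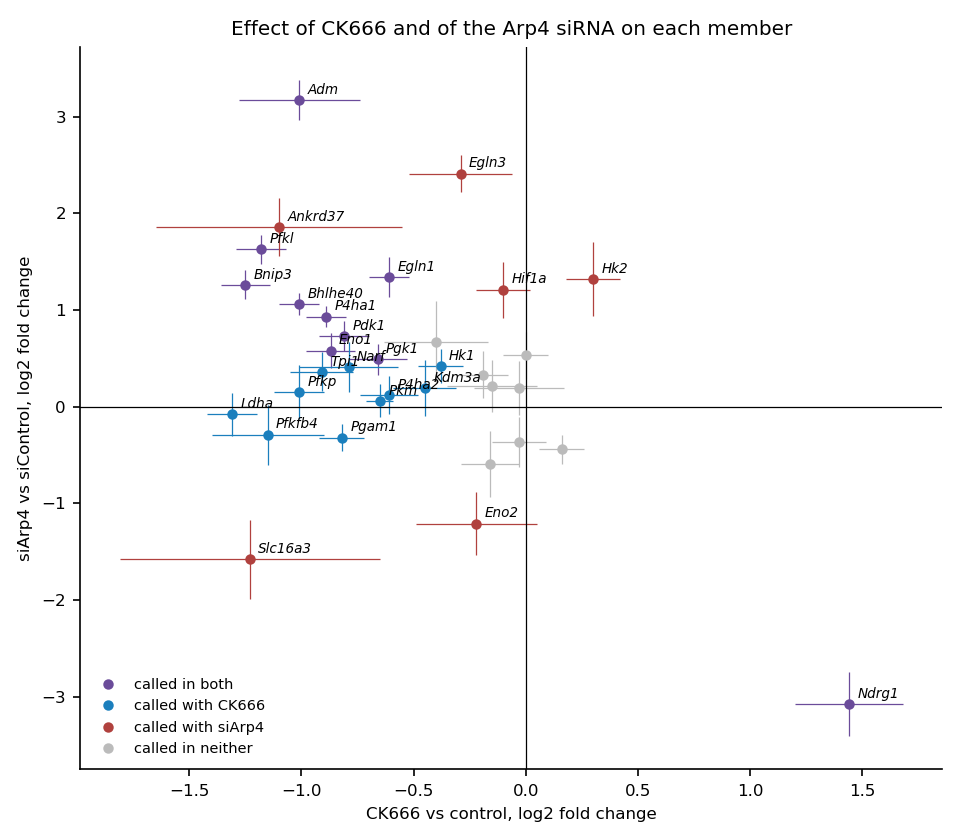
Log2 fold change with siArp4 against siControl (vertical) over that with CK666 against control (horizontal) for 34 of the genes, with standard errors as bars. Colours show in which comparison the adjusted p was below 0.01; the genes called in both lie at the upper left, apart from Ndrg1 at 1.44 and -3.08.

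The widely expressed glucose transporter GLUT1 is encoded by Slc2a1. Its normalized counts were 1838, 1689 and 1833 in control, 1766, 1796 and 1799 in CK666, and 786, 953 and 940 in CytoD. CK666 left Slc2a1 within the control range (log2 fold change 0.00, 95% interval -0.20 to 0.21), and CytoD lowered it in all 3 libraries (log2 fold change -1.0 ± 0.11 (SE), adjusted p = 2.23e-19). In the transfected cells Slc2a1 had 1199, 2140 and 1594 in siControl, 2306, 2557 and 2275 with siArp4, and 2164, 2450 and 2842 with siArp4+CK666. Both knockdown groups lay above all siControl libraries without passing (log2 fold change 0.53, adjusted p = 0.0676, and 0.60, adjusted p = 0.0337). Without siControl replicate 2, the highest of that group, both passed, at 0.76 (adjusted p = 0.000571) and 0.83 (adjusted p = 0.000121). GLUT3, encoded by Slc2a3, was nearly absent, with normalized counts of at most 5.92 in 16 libraries, 49.3 in CytoD replicate 2 and 16.4 in siControl replicate 1.

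Hexokinases trap glucose in the cell as glucose 6-phosphate, and Hk2 is the inducible form bound to mitochondria. Hk2 had 1378, 1546 and 1484 normalized counts in control, 1632, 1769 and 2041 in CK666, and 656, 751 and 765 in CytoD. All CytoD libraries were below control, at 49.3% (log2 fold change -1.02 ± 0.12, adjusted p = 6.17e-15), and the CK666 libraries were above it without passing (0.30, adjusted p = 0.0351; 0.38, adjusted p = 0.00141 without CK666 replicate 1). Counts of Hk2 were 596, 1808 and 1039 in siControl, 2926, 3082 and 2562 with siArp4, and 2170, 2729 and 3898 with siArp4+CK666, with no overlap between siControl and either knockdown group. It rose 2.49-fold with siArp4 (1.32 ± 0.38, adjusted p = 0.00285) and 2.56-fold with siArp4+CK666 (adjusted p = 0.00173). The first call was lost without siControl replicate 3 (adjusted p = 0.0241), siArp4 replicate 1 (0.0184), 2 (0.0235) or 3 (0.0105), and the second without siControl replicate 3 (adjusted p = 0.0169) or siArp4+CK666 replicate 3 (0.027). Without siControl replicate 1, the constitutive Hk1 passed with siArp4, at 0.55 (adjusted p = 0.00218). Hk1 fell with CK666 to 76.7% of control (adjusted p = 0.000794), a call lost without control replicate 2 (adjusted p = 0.0221) or CK666 replicate 3 (0.0165).

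Phosphofructokinase commits sugar to glycolysis, and its 3 subunit genes behaved differently. The liver-type Pfkl had normalized counts of 3908, 4572 and 3753 in control, 1933, 1685 and 1771 in CK666, and 3206, 3508 and 3221 in CytoD. With CK666 it fell to 44.1% of control (log2 fold change -1.18 ± 0.11, adjusted p = 1.2e-24), and each CK666 library was below every control library. In the knockdown experiment Pfkl had 4004, 5293 and 4165 in siControl, 14272, 14245 and 13187 with siArp4, and 10466, 10262 and 11031 with siArp4+CK666. The rise was 3.10-fold with siArp4 (1.63 ± 0.15, adjusted p = 1.24e-24) and 2.36-fold with siArp4+CK666 (1.24, adjusted p = 1.16e-14), with no overlap in either. The platelet-type Pfkp had 1199, 1277 and 1179 in control, 560, 591 and 668 in CK666, 763, 811 and 813 in CytoD, 1841, 827 and 1349 in siControl, 1378, 1416 and 1665 with siArp4, and 909, 894 and 792 with siArp4+CK666. Pfkp fell with CK666 (-1.01 ± 0.11, adjusted p = 6.74e-19) and with CytoD (-0.61), the latter call being lost with all 18 libraries in 1 fit (adjusted p = 0.0129). It passed in neither knockdown comparison, although it passed with siArp4+CK666 once siControl replicate 2 was left out (-0.89, adjusted p = 2.21e-05). The muscle-type Pfkm rose with CytoD, to 136.4% of control (0.45, adjusted p = 8.47e-05). Pfkp overlaps Pitrm1 and Pfkm overlaps Senp1 on the other strand, and the libraries were unstranded, so part of their counts could come from those genes.

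Fructose 2,6-bisphosphate, the strongest activator of phosphofructokinase, is made by the PFKFB enzymes. Pfkfb3 had normalized counts of 272, 277 and 274 in control, 202, 330 and 276 in CK666, and 121, 120 and 123 in CytoD. CytoD lowered it to 44.2% of control (log2 fold change -1.18 ± 0.20, adjusted p = 8.18e-08), and the CK666 libraries spread on both sides of control. In transfected cells Pfkfb3 had 137, 141 and 104 in siControl, 134, 147 and 155 with siArp4, and 153, 134 and 83 with siArp4+CK666, and all 3 groups overlapped. Pfkfb4 had 222, 177 and 203 in control, 68.3, 85.7 and 117 in CK666, 187, 147 and 129 in CytoD, 104, 69.5 and 98.2 in siControl, 66.8, 98.5 and 60.2 with siArp4, and 41.3, 49.3 and 50.7 with siArp4+CK666. It fell to 45.1% of control with CK666 (-1.15 ± 0.25, adjusted p = 2.53e-05). With siArp4+CK666 it fell to 51.8% of siControl (adjusted p = 0.0099), a call that was lost without any one of the 9 libraries except siControl replicate 2 (adjusted p 0.0102 to 0.066).

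Triosephosphate isomerase, Tpi1, fell with CK666 to 53.4% of control (log2 fold change -0.91, adjusted p = 3.56e-10) and with CytoD to 69.9% (-0.52, adjusted p = 0.000691). The CytoD call was lost without control replicate 1 (adjusted p = 0.0123) or CytoD replicate 1 (0.0107), and with all 18 libraries in 1 fit (0.0138). Gpi1, which converts glucose 6-phosphate to fructose 6-phosphate, and Aldoa, the main aldolase, passed in none of the 4 comparisons with a control, with log2 fold changes for Aldoa of -0.03 with CK666 and 0.14 with CytoD. Gpi1 was at -0.59 with siArp4 (adjusted p = 0.169) and -0.85 with siArp4+CK666 (adjusted p = 0.0311), and without siControl replicate 1 it passed in both, at -0.86 (adjusted p = 0.00387) and -1.12 (adjusted p = 0.000106). Aldoc had at most 0.334 mean TPM in control and siControl and was not tested with CytoD. Without CK666 replicate 1, Gpi1 passed with CK666 at -0.29 (adjusted p = 0.000593).

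Gapdh, which yields the first NADH and is often used as a reference gene, varied widely among libraries of one group. In untransfected cells it had 59423, 62668 and 61760 in control, 76831, 39752 and 48941 in CK666, and 56865, 56357 and 61656 in CytoD. The CK666 libraries lay on both sides of control, and the change did not pass (log2 fold change -0.15 ± 0.20, adjusted p = 0.587). Without CK666 replicate 1 it was -0.46 (adjusted p = 2.61e-07), and without CK666 replicate 2 it was 0.04. In transfected cells Gapdh had 73681, 151285 and 102857 in siControl, 131215, 132087 and 115070 with siArp4, and 80324, 83609 and 103506 with siArp4+CK666, so the siControl libraries alone spanned a wider range than the other groups together. Of the 31-base words of its transcript, 84.1% also occur in another gene, chiefly the copy Gm7336. With the counts of such copies added, Gapdh passed with CK666 at -0.34 (adjusted p = 0.00211).

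Of the 6 payoff enzymes, 4 fell with CK666. Pgk1, which makes the first ATP of this stage, had log2 fold changes of -0.66 with CK666 (adjusted p = 6.99e-06), -0.53 with CytoD and 0.49 with siArp4 (adjusted p = 0.00831). The siArp4 call of Pgk1 was lost without siControl replicates 1 or 3, or without any one siArp4 or siArp4+CK666 library (adjusted p 0.013 to 0.0716). The enolase Eno1 fell with CK666 to 54.9% of control (-0.87, adjusted p = 5.13e-15) and with CytoD to 64.5% (-0.63), and rose with siArp4 to 149.0% of siControl (0.58, adjusted p = 0.00568). That rise was lost without siControl replicate 3 (adjusted p = 0.0197), any siArp4 library (0.0181 to 0.056), or siArp4+CK666 replicate 1 (0.011) or 2 (0.0181). Pgam1 (-0.82, adjusted p = 7.71e-16) and Pkm (-0.65 ± 0.06, adjusted p = 7.52e-24) fell with CK666 and did not pass with siArp4, and Pkm is the pyruvate kinase that ends the pathway. With CytoD, Pgam1 fell by 0.71 and Pkm by 0.19 on the log2 scale, and the call of Pkm (adjusted p = 0.00707) was lost without any one of the libraries other than CK666 replicate 1 (adjusted p 0.0114 to 0.0986).

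Eno2, the neuronal enolase isoform, was expressed at a low level and moved apart from Eno1. It had normalized counts of 128, 133 and 218 in control, 98.9, 154 and 158 in CK666, and 335, 265 and 310 in CytoD. It rose with CytoD to 190.2% of control (log2 fold change 0.93 ± 0.26, adjusted p = 0.00163), a call lost without control replicate 1 (adjusted p = 0.025) or 2 (0.0234) or CytoD replicate 1 (0.0243) or 3 (0.0156). It had 314, 210 and 248 in siControl, 79, 139 and 116 with siArp4, and 219, 165 and 114 with siArp4+CK666. The fall to 43.2% with siArp4 (-1.21 ± 0.33, adjusted p = 0.00137) did not pass once siArp4 replicate 1 (adjusted p = 0.022) or 3 (0.0108) was left out, and siArp4+CK666 overlapped siControl.

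Ldha (ENSMUSG00000063229.15, GRCm38 chromosome 7 from 46841475 to 46855627, plus strand) had the smallest adjusted p of the enzymes with CK666. It had normalized counts of 36339, 32857 and 33358 in control, 16003, 12725 and 12639 in CK666, and 21197, 20409 and 21450 in CytoD. Both drugs put all 3 libraries below control, at 40.3% with CK666 (log2 fold change -1.31 ± 0.11, adjusted p = 3.14e-29) and 61.5% with CytoD (-0.70 ± 0.11, adjusted p = 6.56e-09). It had 29825, 50159 and 40100 in siControl, 39067, 39359 and 35517 with siArp4, and 24143, 26838 and 31466 with siArp4+CK666. The siArp4 libraries lay inside the siControl range (-0.08, 95% interval -0.51 to 0.36), and those of siArp4+CK666 were below it in 2 of 3 libraries without passing (-0.54, adjusted p = 0.0386). Without siControl replicate 1, the lowest of that group, the latter passed at -0.71 (adjusted p = 0.000238).

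Pdk1 phosphorylates pyruvate dehydrogenase and so keeps pyruvate out of the mitochondrion. It had normalized counts of 2564, 2194 and 2151 in control, 1374, 1359 and 1208 in CK666, and 1947, 1795 and 1837 in CytoD. The fall with CK666 was to 57.0% of control (log2 fold change -0.81 ± 0.11, adjusted p = 3.3e-12). It had 3215, 2553 and 2944 in siControl, 4820, 4903 and 4710 with siArp4, and 4501, 3760 and 3495 with siArp4+CK666. It rose 1.66-fold with siArp4 (0.73 ± 0.16, adjusted p = 4.74e-05), and siArp4+CK666 lay above siControl without passing (0.43, adjusted p = 0.0213; 0.51, adjusted p = 0.0053 without siControl replicate 1).

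The lactate exporter MCT4, encoded by Slc16a3, had few counts, with normalized values of 46, 16.2 and 21.9 in control, 15.7, 12.6 and 8.31 in CK666, and 13.3, 11.2 and 20.3 in CytoD, and no drug comparison passed. It had 50.8, 52.8 and 78.4 in siControl, 23.2, 17.6 and 19.8 with siArp4, and 1.69, 3.18 and 3.52 with siArp4+CK666, so the 3 groups were stepped without overlap. It fell by 1.58 ± 0.41 on the log2 scale with siArp4 (adjusted p = 0.000782) and more with siArp4+CK666 (-4.49 ± 0.63, adjusted p = 1.9e-11). The 3 siArp4+CK666 libraries held 8 counts in all against 187 in siControl, or 4.51% of siControl with an exact 95% interval of 1.92% to 9.08% that covers counting error only. The siArp4 call was lost without siControl replicate 3 (adjusted p = 0.0268) or siArp4 replicate 2 (0.0156) or 3 (0.0122).

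Hif1a encodes the oxygen-regulated subunit, whose control is known to be largely at the level of the protein, which was not measured here. Its normalized counts were 6356, 6506 and 6431 in control, 5037, 6808 and 6114 in CK666, and 5843, 6068 and 6004 in CytoD. Neither drug moved it past the test, and with CK666 the log2 fold change was -0.10 (95% interval -0.33 to 0.13). It had 7548, 3675 and 5070 in siControl, 11273, 11993 and 14500 with siArp4, and 15579, 12660 and 10486 with siArp4+CK666. Both knockdown groups lay above all siControl libraries, 2.32-fold with siArp4 (1.21 ± 0.29, adjusted p = 0.000192) and 2.38-fold with siArp4+CK666 (1.25, adjusted p = 9.12e-05).

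The hydroxylases that mark the HIF subunit for degradation are themselves HIF targets. Egln1, the main oxygen sensor, had normalized counts of 3085, 2759 and 2976 in control, 1986, 1879 and 1894 in CK666, 1722, 1827 and 1851 in CytoD, 2494, 3884 and 3585 in siControl, 8593, 8770 and 7791 with siArp4, and 5331, 6044 and 7067 with siArp4+CK666. Both drugs lowered it, to 65.3% (log2 fold change -0.61, adjusted p = 2.17e-11) and 61.2% of control (-0.71, adjusted p = 1.03e-14), and it rose 2.53-fold with siArp4 (1.34 ± 0.21, adjusted p = 5.9e-09) and 1.85-fold with siArp4+CK666 (adjusted p = 0.000165). Egln3, strongly induced by hypoxia, had 199, 146 and 171 in control, 146, 136 and 141 in CK666, 119, 130 and 190 in CytoD, 103, 78.3 and 114 in siControl, 506, 563 and 501 with siArp4, and 586, 511 and 570 with siArp4+CK666. It rose 5.30-fold with siArp4 (2.41 ± 0.19, adjusted p = 1.17e-33) and 5.62-fold with siArp4+CK666 (2.49, adjusted p = 2.02e-36), and it passed with neither drug.

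**Figure D5:**
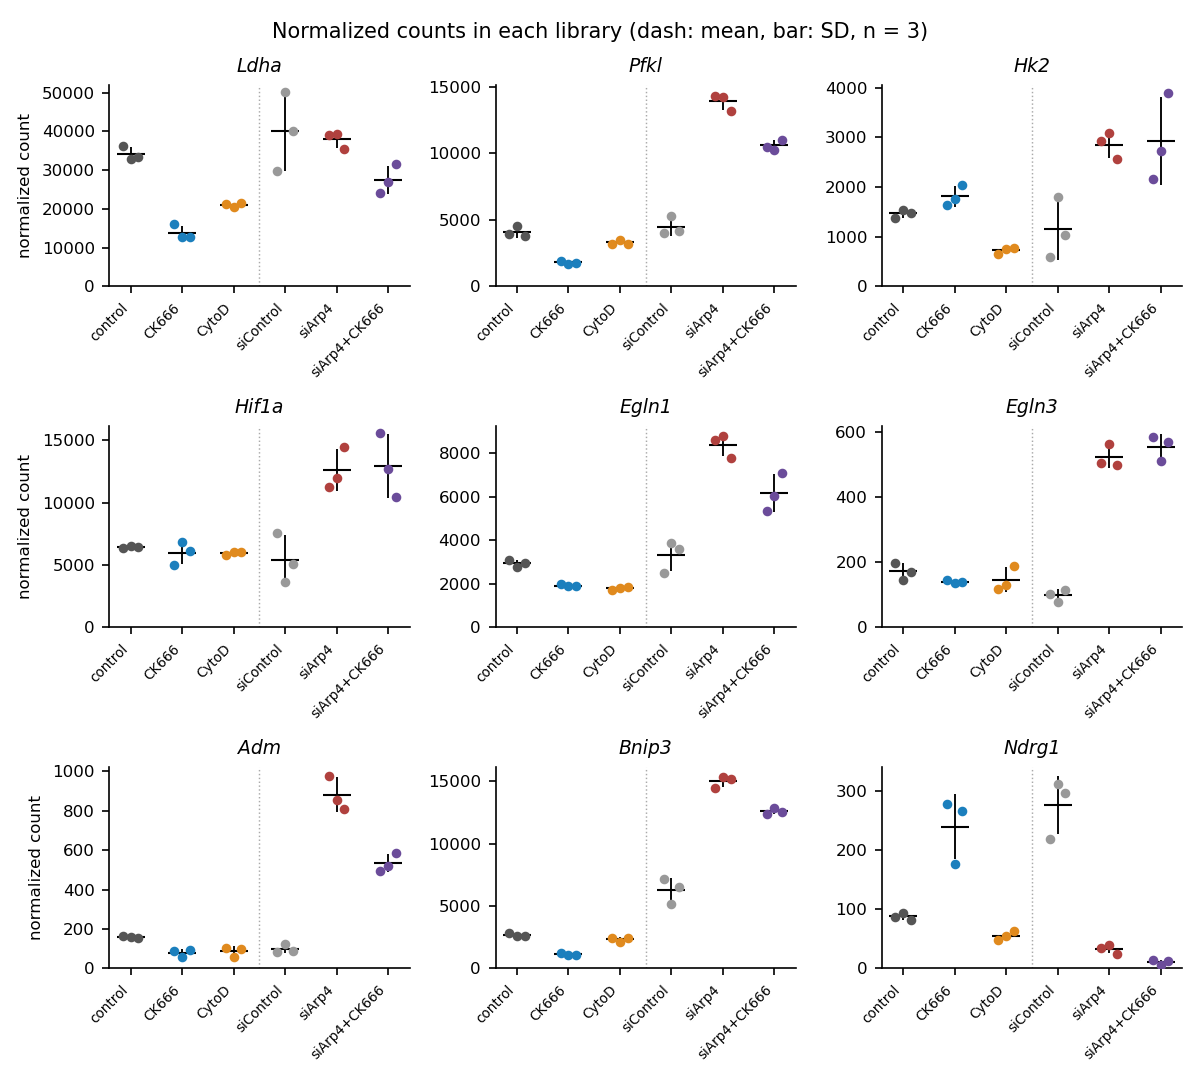
Normalized counts of 9 genes in the 18 libraries; points are libraries, dashes means and bars SD (n = 3), and the dotted line parts the 2 experiments, which were normalized separately. Ldha, Pfkl and Bnip3 are lower in CK666 than in control, Hk2 is lower in CytoD, and Egln1, Egln3, Adm and Bnip3 stand higher in siArp4 than in siControl, where Ndrg1 is lower.

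Collagen prolyl 4-hydroxylases stabilize the collagen helix. P4ha1 fell with CK666 to 53.8% of control (log2 fold change -0.89 ± 0.09, adjusted p = 2.21e-23) and with CytoD to 63.0% (-0.67), and rose 1.91-fold with siArp4 (0.93 ± 0.11, adjusted p = 1.5e-14). In siArp4+CK666 its counts, 5996, 6213 and 6295, lay inside the siControl range of 5502 to 6541 (0.05, adjusted p = 0.785), where siArp4 had 11240 to 11566. P4ha2 had normalized counts of 1771, 1800 and 1809 in control, 1302, 1149 and 1083 in CK666, 1447, 1246 and 1114 in CytoD, 3116, 4945 and 3953 in siControl, 4465, 4469 and 4078 with siArp4, and 1503, 1639 and 1684 with siArp4+CK666. It fell with CK666 (-0.61, adjusted p = 1.03e-05) and CytoD (-0.50), did not pass with siArp4 (0.12), and was at 40.2% of siControl in siArp4+CK666 (-1.32 ± 0.20, adjusted p = 3.22e-10).

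Adm encodes adrenomedullin, a secreted vasodilator peptide, lies on chromosome 7 from 110627661 to 110629820 on the plus strand (GRCm38, ENSMUSG00000030790.15), and had the largest rise of the 36 genes with siArp4. Its normalized counts were 164, 158 and 155 in control, 86.2, 57 and 92.8 in CK666, and 103, 59.6 and 98.9 in CytoD. It fell with CK666 to 49.6% of control (log2 fold change -1.01 ± 0.27, adjusted p = 0.000976) and with CytoD to 54.8% (-0.87, adjusted p = 0.00532). The CK666 call was lost without control replicate 1 (adjusted p = 0.0117) or 2 (0.0101) or CK666 replicate 2 (0.0129), and the CytoD call without any control library (0.0275 to 0.0386) or CytoD replicate 2 (0.0559) or 3 (0.0117). It had 85.4, 123 and 86.6 in siControl, 978, 856 and 806 with siArp4, and 495, 520 and 587 with siArp4+CK666. The rise was 9.02-fold with siArp4 (3.17 ± 0.21, adjusted p = 2.69e-50) and 5.47-fold with siArp4+CK666 (2.45, adjusted p = 4.72e-30).

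Vegfa, the principal angiogenic growth factor, moved less. It had normalized counts of 5068, 4224 and 4513 in control, 3687, 4347 and 4034 in CK666, and 3339, 3555 and 3098 in CytoD. It fell with CytoD to 72.4% of control (log2 fold change -0.47, adjusted p = 0.000189), a call lost with all 18 libraries in 1 fit (adjusted p = 0.0248). It did not pass with CK666 (-0.19, adjusted p = 0.165). It had 6937, 4020 and 5779 in siControl, 6889, 7121 and 7004 with siArp4, and 10702, 8921 and 7622 with siArp4+CK666. It rose 1.63-fold with siArp4+CK666 (0.70, adjusted p = 0.00941) and did not pass with siArp4 (0.33, adjusted p = 0.291). The first call was lost without siControl replicate 2 or 3, any siArp4 library, or siArp4+CK666 replicate 1 or 2 (adjusted p 0.0126 to 0.0794).

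Bnip3, which sits on the outer mitochondrial membrane and promotes mitophagy, had normalized counts of 2797, 2592 and 2593 in control, 1242, 1036 and 1068 in CK666, and 2403, 2097 and 2463 in CytoD. It fell with CK666 to 41.9% of control (log2 fold change -1.25 ± 0.11, adjusted p = 1.29e-26) and did not pass with CytoD. In the transfected cells it had 7126, 5167 and 6495 in siControl, 14440, 15317 and 15167 with siArp4, and 12388, 12838 and 12538 with siArp4+CK666, and both knockdown groups lay above every siControl library. The rises were 2.39-fold (1.26 ± 0.15, adjusted p = 1.54e-14) and 2.01-fold (1.01, adjusted p = 9.93e-10). An unnamed noncoding locus shares 61.2% of the 31-base words of Bnip3, and with such copies added the CK666 change was -0.83 (adjusted p = 9.33e-27) and the siArp4 change 1.11 (adjusted p = 2.45e-08). Higd1a, a hypoxia-induced protein of the inner mitochondrial membrane, passed in none of the 4 comparisons, and siControl replicate 2 held 8783 normalized counts against 2291 and 4479 in the other siControl libraries. Without that library Higd1a passed with siArp4 (1.27, adjusted p = 0.000307), and without CK666 replicate 1 it passed with CK666 (-0.78, adjusted p = 1.28e-09). Its CytoD libraries (403, 424 and 403) all lay below those of control (639, 678 and 630). With only the 2 groups compared, Higd1a passed with CytoD (-0.66, adjusted p = 2.76e-08). With single libraries left out, that adjusted p ran from 6.51e-09 to 0.0615.

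Ndrg1 (ENSMUSG00000005125.13, GRCm38 chromosome 15 from 66929318 to 66969640, minus strand), a stress-responsive gene that hypoxia usually induces, was the 1 gene of the 36 called higher with CK666. Untransfected cells had 86.6, 94 and 82.3 normalized counts without treatment, 277, 176 and 265 with CK666, and 47.3, 54.6 and 62.3 with CytoD. It rose 2.72-fold with CK666 (log2 fold change 1.44 ± 0.24, adjusted p = 2.16e-08), with every CK666 library above control, and CytoD lay below control without passing. It had 219, 311 and 296 in siControl, 34.5, 38.8 and 24.5 with siArp4, and 13.5, 5.62 and 12.4 with siArp4+CK666. It fell to 11.8% of siControl with siArp4 (-3.08 ± 0.33, adjusted p = 4.52e-19) and to 3.9% with siArp4+CK666 (-4.70 ± 0.39, adjusted p = 4.7e-31). The 3 siArp4+CK666 libraries held 30 counts in all against 825 in siControl.

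Bhlhe40 and Kdm3a encode a transcriptional repressor and a histone H3K9 demethylase. Bhlhe40 had normalized counts of 2650, 3017 and 2840 in control, 1386, 1476 and 1367 in CK666, 2639, 2744 and 2648 in CytoD, 2284, 1982 and 2072 in siControl, 4211, 4478 and 4514 with siArp4, and 3804, 3899 and 3812 with siArp4+CK666. It fell to 49.7% of control with CK666 (log2 fold change -1.01 ± 0.09, adjusted p = 7.39e-28), and rose 2.08-fold with siArp4 (1.06 ± 0.11, adjusted p = 3.29e-19) and 1.82-fold with siArp4+CK666 (0.86, adjusted p = 4.14e-13). Kdm3a fell with CK666 (-0.45, adjusted p = 0.00557), a call lost without any control library, CK666 replicate 3 or CytoD replicate 2 (adjusted p 0.0115 to 0.0579) and in the edgeR fit (0.0215).

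Ankrd37, an ankyrin repeat gene, had 39.4, 23.2 and 35.5 normalized counts in control, 29.9, 6.49 and 9.81 in CK666, 33.6, 34.2 and 45.4 in CytoD, 96.4, 220 and 170 in siControl, 604, 620 and 535 with siArp4, and 382, 450 and 505 with siArp4+CK666. It rose 3.63-fold with siArp4 (log2 fold change 1.86 ± 0.30, adjusted p = 5.81e-09) and 2.76-fold with siArp4+CK666 (1.47, adjusted p = 5.97e-06), with all knockdown libraries above siControl. With CK666 it did not pass (-1.10, adjusted p = 0.1), and without CK666 replicate 1 it did (-1.99, adjusted p = 0.00212). Ankrd37 overlaps the more abundant Ufsp2 on the other strand. Narf, which encodes a nuclear lamin-binding protein, fell with CK666 (-0.79, adjusted p = 0.00109) and rose with CytoD (0.64, adjusted p = 0.00842). Its CK666 call was lost without control replicate 2 (adjusted p = 0.0273), and its CytoD call without control replicate 1 or 3, CK666 replicate 3, or CytoD replicate 1 or 3 (0.0135 to 0.111).

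The drugs also differed from each other. In CK666 against CytoD, 4 genes were higher and 12 lower of 36 tested, where 16.9% of all 15038 genes were higher and 14.9% lower, and the median log2 fold change was -0.25 against -0.03. The 4 higher genes were Ndrg1 (2.13, adjusted p = 4.38e-16), Hk2 (1.33, adjusted p = 6.17e-25), Pfkfb3 (1.15, adjusted p = 1.49e-07) and Slc2a1 (1.0 ± 0.11, adjusted p = 1.51e-19). Their relatives Hk1 and Pfkfb4 were called lower, as was Pfkp. The calls of Hk1 and Pfkfb4 were lost in the edgeR fit (adjusted p = 0.0158 and 0.0219). That of Pfkp was lost with only the 2 groups compared (0.0227). The lowest were Narf (-1.43, adjusted p = 2.83e-10), Eno2 (-1.15, adjusted p = 6.52e-05) and Bnip3 (-1.06, adjusted p = 4.5e-19), and Ldha (-0.61, adjusted p = 6.08e-07), Pfkl (-0.88) and Bhlhe40 (-0.93) were also lower. Without CK666 replicate 1 the number called was 25 rather than 16, 5 higher and 20 lower. This comparison uses the same libraries as the 2 comparisons with control.

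Within the knockdown, adding CK666 lowered 6 of 34 genes tested and raised 0 by DESeq2, 0 by edgeR and 0 at an unadjusted p under 0.05, where 3.82% of all 14098 genes rose and 6.07% fell, and the median log2 fold change was -0.33 against 0.02. The 6 were Slc16a3 (-2.91 ± 0.65, adjusted p = 0.000141), Ndrg1 (-1.61 ± 0.42, adjusted p = 0.00143), P4ha2 (-1.43 ± 0.20, adjusted p = 2.46e-11), P4ha1 (-0.89 ± 0.11, adjusted p = 9.52e-13), Adm (-0.72 ± 0.19, adjusted p = 0.00233) and Pgk1 (-0.70 ± 0.16, adjusted p = 0.000163). In each of the 6, all siArp4+CK666 libraries were below all siArp4 libraries. The number called was 3 without siArp4 replicate 1, siArp4 replicate 2 or siArp4+CK666 replicate 2. The call of Ndrg1 was lost without each of those 3 libraries (adjusted p 0.0207 to 0.0466), that of Pgk1 without those or siArp4+CK666 replicate 1 (0.0109 to 0.0161), and that of Adm without any one of the 6 libraries compared except siArp4+CK666 replicate 3 (0.0161 to 0.0819). Ldha had a log2 fold change of -0.47 in this comparison and did not pass. With only the 2 groups compared, Ldha passed (-0.46, adjusted p = 0.00653). Pfkl, Pfkp, Tpi1, Gapdh, Eno1 and Higd1a then passed as lower too, and Ndrg1 did not pass (0.0236). In the edgeR fit the calls of Ndrg1, Pgk1 and Adm were lost (adjusted p 0.0174 to 0.0309).

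The effect of CK666 within the knockdown was tested against its effect in untransfected cells as an interaction over all 18 libraries, a test in which transfection and knockdown cannot be told apart. The difference was positive in 7 genes and negative in 2 of 34 tested, where 3.76% of all 13511 genes had a positive and 4.06% a negative one, and its median was 0.25 against -0.03. A positive difference means a weaker fall, or a rise, in the knockdown. It was 0.81 ± 0.10 for Bhlhe40 (adjusted p = 8.07e-13), 1.0 ± 0.16 for Bnip3 (adjusted p = 2.97e-08), 0.88 ± 0.15 for Pgam1 (adjusted p = 5.34e-07) and 0.79 ± 0.17 for Pfkl (adjusted p = 0.000179). For Narf it was 1.14 ± 0.33 (adjusted p = 0.00756), for Ldha 0.84 ± 0.25 (adjusted p = 0.00881) and for Pkm 0.62 ± 0.17 (adjusted p = 0.00552). With copies added, the difference for Bnip3 was 0.57 (adjusted p = 0.00789). The difference was negative for Ndrg1 (-3.06 ± 0.45, adjusted p = 8.76e-10), which rose with CK666 in untransfected cells and fell with it in the knockdown, and for P4ha2 (-0.83 ± 0.23, adjusted p = 0.00408). P4ha1 fell by 0.89 on the log2 scale in both settings (difference 0.00, adjusted p = 0.99). The number called was 5 rather than 9 without control replicate 1 or 2, siArp4 replicate 1 or 2, or siArp4+CK666 replicate 2, where the calls of Narf, Ldha, Pkm and P4ha2 were each lost (adjusted p 0.012 to 0.0486). Those 4 were lost without other single libraries as well, up to adjusted p = 0.0486 for Narf, 0.0388 for Ldha, 0.0271 for Pkm and 0.0229 for P4ha2.

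Transfection itself came with changes in these genes, so the 2 experiments were not read on one scale. In siControl against control, 14 genes were higher and 6 lower of 35 tested, where 21.7% of all 14491 genes were higher and 20.4% lower. The siRNA, the lipofection, the serum-free night and any difference between the experiments cannot be told apart here. Higd1a (log2 fold change 3.06 ± 0.37, adjusted p = 2.39e-15), Ankrd37 (2.36) and Ndrg1 (1.69) were the highest, and Bnip3 (1.28, adjusted p = 2.45e-28), P4ha2 (1.21) and Aldoa (1.09) were higher as well. Pfkfb4 (-1.09), Pfkfb3 (-1.06) and Eno1 (-0.94 ± 0.14, adjusted p = 1.3e-10) were the lowest. Gapdh was higher by 0.89 (adjusted p = 0.00117), Gpi1 by 0.82 (adjusted p = 0.00529) and Tpi1 by 0.64 (adjusted p = 0.000619), and all 3 calls were lost without siControl replicate 2, at 0.57 (adjusted p = 0.0315), 0.41 (0.124) and 0.49 (0.0125). With copies added, Gapdh did not pass (0.38, adjusted p = 0.11).

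Several calls depended on CK666 replicate 1 or on single siControl libraries. Without CK666 replicate 1, 25 genes were called with CK666 (2 higher and 23 lower), adding Gapdh, Gpi1, Higd1a, Ankrd37 and Hk2 with the values given above. Without siControl replicate 2, 18 were called with siArp4 (15 higher and 3 lower), adding Slc2a1 and Higd1a, and 15 with siArp4+CK666 (10 higher and 5 lower). Without siControl replicate 1, 19 were called with siArp4 (14 higher and 5 lower), losing Pgk1 (0.37, adjusted p = 0.0152) and adding Hk1, Gpi1, Pfkm (-0.52, adjusted p = 0.0038) and Narf (0.68, adjusted p = 0.00481). With siArp4+CK666, 18 were then called (13 higher and 5 lower), losing Pfkfb4 and adding Gpi1, Ldha, Pdk1, Narf (1.04, adjusted p = 6.24e-06) and Kdm3a (0.97, adjusted p = 3.51e-05). For siArp4+CK666 against siArp4 the number called became 9 without that library, with Pfkp (-0.77, adjusted p = 0.00212), Tpi1 (-0.60, adjusted p = 0.000832) and Eno1 (-0.48, adjusted p = 0.00193) added. Without siArp4+CK666 replicate 3, 15 were called with siArp4 and 12 with siArp4+CK666.

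Other genes of these pathways were counted from lists that leave out the 36. Over all genes tested, 15.3% rose and 14.7% fell with CK666, and 13.6% rose and 16.0% fell with CytoD. With siArp4 11.9% rose and 13.1% fell, and with siArp4+CK666 14.0% rose and 15.8% fell. Every count below stands beside these shares. Of 32 other glycolysis and pyruvate genes tested with CK666, 7 rose and 6 fell, of 30 with CytoD 6 rose and 3 fell, of 31 with siArp4 7 rose and 5 fell, and of 31 with siArp4+CK666 9 rose and 7 fell. Their largest changes among genes with a mean of at least 100 normalized counts were Slc2a10 (-1.35 ± 0.28), Pdhb (1.08 ± 0.13) and Pgd (1.01 ± 0.11) with CK666, and Tkt (-1.96), Slc16a1 (1.37 ± 0.17) and Pdk3 (1.14) with siArp4. Tkt and Pgd belong to the pentose phosphate pathway, and Slc16a1 encodes the lactate transporter MCT1. Of 11 other HIF regulators, 2 rose with CK666, and 1 rose and 3 fell with siArp4, among them the hydroxylases Egln2 (-1.27 ± 0.32) and Hif1an (-0.83 ± 0.20), which fell. Of 36 other HIF targets, 8 rose and 8 fell with CK666, 9 and 9 with CytoD, 13 and 4 with siArp4, and 14 and 3 with siArp4+CK666. Ero1l (2.36 ± 0.11), Hmox1 (2.29 ± 0.13) and Ddit4 (1.56 ± 0.14), which respond to several kinds of stress, rose with CK666, while Ppp1r3c (1.64) rose and Fut11 (-2.53) and Cxcl12 (-2.41) fell with siArp4. Txnip, which glucose induces through MondoA and which restrains glucose uptake, fell with CK666 (-4.26 ± 0.11) and when CK666 was added to the knockdown (-3.08), and rose with CytoD (1.02).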

How the data were processed

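Unstranded paired-end RNA-seq of marrow MSCs gave 18 libraries. The authors quantified reads with Salmon 1.2.1 at default settings against GENCODE on GRCm38 (mm10) and deposited estimated counts per gene; how transcripts were summed to genes is not given in the sources used here. Estimated counts were rounded to whole numbers. Each experiment of 9 libraries was fitted by group alone with DESeq2 1.42.0 (Wald test, independent filtering at 0.01). The interaction and siControl against control came from all 18 libraries. Adjusted p-values cover all genes tested; a gene was called below 0.01, or below 0.01 with an absolute log2 fold change over 1. The tests were checked on simulated counts. The 36 genes and the lists were chosen with earlier results of these data known. Values in every library are given for genes called with an absolute log2 fold change over 1 against a control and for Hif1a, Gapdh, Slc2a1, Ldha, Pdk1 and Vegfa; of the others, the 3 largest changes in each direction. The alternatives were edgeR 4.0.16 (quasi-likelihood), TMM size factors, a low count filter, a replicate block, no Cook's distance handling, other sets of libraries in the fit, each library left out, and, chosen after seeing the data, copies added. Normalized counts are counts divided by size factors within each experiment, and TPM uses the longest coding transcript of GENCODE vM21.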

Additional observations from a re-analysis of the deposited data

Results flagged for a closer look

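The response to CK666 differed between knockdown and untransfected cells in 9 of the 34 genes tested, by the interaction test itself (DESeq2, adjusted p below 0.01). Over all 13511 genes tested, 3.76% had a positive and 4.06% a negative difference. Differences are given as the log2 fold change of CK666 in the knockdown minus that in untransfected cells. The difference was 1.14 for Narf, 1.0 for Bnip3 (0.57, adjusted p = 0.00789, with copies added), 0.88 for Pgam1, 0.84 for Ldha, 0.81 for Bhlhe40, 0.79 for Pfkl and 0.62 for Pkm. It was -3.06 for Ndrg1 and -0.83 for P4ha2. The calls of Narf, Ldha, Pkm and P4ha2 were lost in the edgeR fit (adjusted p 0.0189 to 0.039) and without some single libraries. Ndrg1 was the single one of the 9 genes whose change with CK666 was called in opposite directions in the 2 settings, 1.44 in untransfected cells and -1.61 in the knockdown. The call in the knockdown was lost in the edgeR fit (adjusted p = 0.0238) and with only the 2 groups compared (0.0236). It was also lost without some single libraries (up to 0.0466). The knockdown cells were also transfected, and the part of transfection in these differences cannot be told apart.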

How the results depend on the processing

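Every call rests on 3 libraries a group. Counting error bears on Slc16a3, Slc2a3 and Aldoc, on Ndrg1 in siArp4+CK666 (30 counts in all) and on Ankrd37 in CK666 (47 counts in all). Of the 36 genes, 28 had a group mean of at least 100 normalized counts in every group. Under all alternatives and with each library left out, 16 of the 20 calls for CK666, 11 of 18 for CytoD, 12 of 16 for CK666 against CytoD, 11 of 16 for siArp4, 11 of 14 for siArp4+CK666, 3 of 6 for siArp4+CK666 against siArp4, 5 of 9 for the interaction and 15 of 20 for siControl against control were still called. Genes called with an absolute log2 fold change over 1 for CK666 went from 8 to 5 with edgeR and with TMM size factors, Pfkp, Bhlhe40 and Adm lying at the limit. For siArp4+CK666 against siArp4, 6 calls became 3 with edgeR, 12 with only the 2 groups compared and 10 with all 18 libraries in 1 fit. For the interaction, 9 calls became 5 with edgeR, and the 3 with an absolute difference over 1 became 1 with edgeR and 1 with TMM size factors. The cause was not tested.

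With each library left out in turn, the number called ran from 16 to 25 for CK666 (5 to 8 over the fold limit), 13 to 21 for CytoD (2 to 4), 12 to 25 for CK666 against CytoD (6 to 7), 11 to 19 for siArp4 (9 to 12), 11 to 18 for siArp4+CK666 (9 to 12), 3 to 9 for siArp4+CK666 against siArp4 (2 to 3), 5 to 12 for the interaction (1 to 3) and 17 to 22 for siControl against control (8 to 10). Over all genes the number called ran from 3300 to 4862 for CK666, 3017 to 5377 for CytoD and 3695 to 5462 for CK666 against CytoD. It ran from 2670 to 5074 for siArp4, 3388 to 5889 for siArp4+CK666 and 774 to 1975 for siArp4+CK666 against siArp4. For the interaction it ran from 748 to 1613, and for siControl against control from 5064 to 7478. Among the 36, the count of 1 for the interaction came without control replicate 1, CK666 replicate 2 or 3, CytoD replicate 3, siArp4 replicate 1 or siArp4+CK666 replicate 2. Gapdh, which did not pass, ran from -0.46 to 0.04 for CK666 and from -0.39 to 0.12 for CK666 against CytoD, where it was 0.01 without CK666 replicate 3. For siControl against control, Hk2 ran from -0.81 to 0.02, Pfkp from -0.11 to 0.42 and Hif1a from -0.50 to 0.01, with Hk2 and Pfkp turning sign without siControl replicate 1 and Hif1a without siControl replicate 2.

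With the replicate number as a block, the numbers called were 19 for CK666, 16 for CytoD, 16 for CK666 against CytoD, 15 for siArp4, 14 for siArp4+CK666, 5 for siArp4+CK666 against siArp4, 9 for the interaction and 18 for siControl against control. Correlations between groups of the libraries' deviations from their group means ran from -0.311 to 0.571 for same-numbered libraries. For differently numbered ones they ran from -0.587 to 0.515. With so few libraries a group, these values cannot settle whether the numbers pair the libraries.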
